A study of Mus musculus with 12 samples.

Results

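The miR-34 family and its mir-449a, mir-449b and mir-449c relatives comprise 6 mouse miRNA hairpins, mmu-mir-34a, mmu-mir-34b, mmu-mir-34c, mmu-mir-449a, mmu-mir-449b and mmu-mir-449c. They were taken by name, by a rule that uses no measured value although earlier results of these data were known, from 1050 miRBase hairpins that had at least 1 read in any of 12 small RNA libraries. All 6 had reads in at least 1 library. For each hairpin, genome-matched and unmatched reads were summed and divided by all miRBase reads of the library, to give CPM (counts per 1000000 miRBase reads).

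The libraries came from mouse sperm and from TM4, a mouse Sertoli cell line that stands for the somatic cells that nurse germ cells in the testis. Sperm came from the epididymis of C57BL6/J males that received a control diet (CD, 16% of kcal from fat) or a high-fat diet (HFD, 69% of kcal from fat) for 7 weeks from 4 weeks of age, the fat content and the starting age being those of the sample labels, with 3 sperm samples pooled in each library and 3 libraries per diet. TM4 cells were left untreated (Ctrl), treated with 10 µM of the AMPK inhibitor Compound C for 12 h (CC), or made to overexpress Ang, the ribonuclease angiogenin, from a plasmid (Ang OE), with 2 libraries per group. The study concerned how a high-fat diet alters small RNAs, above all tRNA fragments, in the male reproductive organs, and TM4 cells served as a somatic testis model for AMPK inhibition and Ang. No empty-vector control is named in the labels, so the Ctrl libraries served both treatments, and the libraries of TM4 are not stated to be separate cultures. Their p-values therefore measure the spread between these libraries, which may be technical. According to the paper, batch effects in the cell line data were adjusted with ComBat-seq, and the batches are not named.

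A miRNA finds its targets mainly through its seed, bases 2 to 8 of the mature strand, so hairpins whose mature strands share a seed can repress overlapping sets of mRNAs. The mir-34b and mir-34c hairpins and the mir-449a, mir-449b and mir-449c hairpins are each made from a cluster that is active in meiotic and later germ cells and in ciliated epithelia, and mice without both clusters have infertile males. mir-34a is made broadly, and all mir-34 genes are known targets of the transcription factor p53.

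The mature sequences below are shown because the shared seed is what makes these hairpins a family. They are from RefSeq on GRCm38.p6, the assembly that the submitters' processing notes name as mm10, and run from 5′ to 3′ with the seed in capitals.
mmu-miR-34a-5p: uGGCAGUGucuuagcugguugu
mmu-miR-34b-5p: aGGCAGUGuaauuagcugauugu
mmu-miR-449a-5p: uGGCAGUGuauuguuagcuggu
mmu-miR-449c-5p: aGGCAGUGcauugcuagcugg
mmu-miR-34b-3p: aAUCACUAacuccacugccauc
mmu-miR-34c-3p: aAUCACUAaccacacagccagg

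Of 1738 mature mouse miRNAs in the RefSeq table, 4 carried the seed GGCAGUG, and they were the 5p strands of mmu-mir-34a, mmu-mir-34b, mmu-mir-449a and mmu-mir-449c printed above. mmu-miR-34c-5p and the mature strands of mmu-mir-449b were not compared here, so these counts say nothing of their seeds. Base by base from the 5′ end, mmu-miR-449a-5p and mmu-miR-449c-5p were identical at 18 of 21 positions. mmu-miR-34a-5p and mmu-miR-449a-5p were identical at 15 of 22 positions, including the first 9 bases. The 3p strands of mmu-mir-34b and mmu-mir-34c shared a different seed, AUCACUA, which no other mature miRNA of the table had. The deposited reads are counted per hairpin, so reads of the 5p and the 3p strand cannot be separated in the values below.

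On GRCm38.p6, mmu-mir-34c lies at chr9:51103034-51103110 and mmu-mir-34b at chr9:51103562-51103645, both on the minus strand with 451 bases between them. GENCODE vM39, which is built on GRCm39, places both in an intron of Btg4, a protein-coding gene on the opposite strand. In RefSeq on GRCm38.p6 the protein-coding gene Hoatz also spans both, and its strand was not compared. mmu-mir-449c lies at chr13:113035983-113036091 and mmu-mir-449a at chr13:113037534-113037624, both on the plus strand with 1442 bases between them, in an intron of the protein-coding gene Cdc20b on the same strand. mmu-mir-34a stands alone at chr4:150068454-150068555 on the plus strand, in an intron of the long non-coding RNA gene Gm13067 and also in an exon of Gm37795, a gene of the annotation's provisional type TEC.

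Sperm libraries held 11412945 to 14822686 miRBase reads and TM4 libraries 27651384 to 35704399, spread over 720 to 802 hairpins per library, and replicates differed by more than counting error (chi-square per degree of freedom of 240.9 to 1522 for pairs within a group). HFD library 1 stood apart from the other HFD libraries, with 1184 and 1522, while the other sperm pairs lay between 269.6 and 330.8. miRNAs of the germ cell list summed to between 1686 and 8866 CPM in sperm and at most 1.45 CPM in TM4. Sperm also held 8946 to 14330 CPM of the epithelial list and 25240 to 50600 CPM of the red blood cell list, and HFD library 1 had the highest value of the latter. mir-202, known from gonadal somatic cells including Sertoli cells, was at 0 to 0.178 CPM in TM4 and at 4.86 to 59.8 CPM in sperm, so TM4 lacked this marker. TM4 instead held 21700 to 28000 CPM of the mesenchymal list, against 2052 to 2791 CPM in sperm. In these bulk samples fewer cells of a type and less RNA per cell cannot be told apart, and the part of other cells in the results below was not tested.

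mmu-mir-34c was the most abundant hairpin of the family in every library. It stood at 1517, 2762 and 2463 CPM in the CD libraries 1 to 3 and at 1441, 1895 and 2364 CPM in the HFD libraries 1 to 3. In TM4 it stood at 979.5 and 939.8 CPM in Ctrl, 853 and 943 CPM in CC, and 1956 and 1834 CPM in Ang OE. The Ang OE libraries were thus inside the range of the sperm libraries, while Ctrl and CC lay below every sperm library. By group means the order was CC with 898 ± 63.3 CPM (SD, n = 2), Ctrl with 959.7 ± 28.1 (n = 2), Ang OE with 1895 ± 86.7 (n = 2), HFD with 1900.2 ± 462 (n = 3) and CD with 2247 ± 649.7 (n = 3). CC and Ctrl overlapped, and so did Ang OE, HFD and CD.

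mmu-mir-34b, the neighbour of mmu-mir-34c, was at 259, 456 and 287 CPM in CD and at 580.5, 183 and 192 CPM in HFD. HFD library 1 was the highest of all 12 libraries, and the other HFD libraries were the lowest sperm libraries. TM4 held 59.8 and 65.7 CPM in Ctrl, 70.1 and 69.8 in CC, and 70.2 and 81.6 in Ang OE, all below every sperm library. In the order of means, Ctrl with 62.7 ± 4.13 CPM (SD, n = 2), CC with 69.9 ± 0.189 (n = 2) and Ang OE with 75.9 ± 8.01 (n = 2) differed by a few CPM with no overlap. HFD with 319 ± 227 (n = 3) and CD with 334 ± 107 (n = 3) overlapped.

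mmu-mir-34a, the member with its own locus and the best known p53 target, was at 28.8, 38.4 and 33.1 CPM in CD and at 17.1, 39.8 and 41.1 CPM in HFD. Here HFD library 1 was the lowest sperm library, the opposite of its place for mmu-mir-34b. TM4 held 2.27 and 2.58 CPM in Ctrl, 1.90 and 2.60 in CC, and 5.44 and 3.53 in Ang OE, the last 2 values resting on 176 and 119 reads. Means were 2.25 ± 0.495 CPM in CC (SD, n = 2), 2.42 ± 0.215 in Ctrl (n = 2), 4.49 ± 1.35 in Ang OE (n = 2), 32.7 ± 13.5 in HFD (n = 3) and 33.4 ± 4.82 in CD (n = 3). CC and Ctrl overlapped, as did HFD and CD, and Ang OE lay between these pairs without overlap.

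mmu-mir-449a, whose 5p strand begins with the same 9 bases as that of mmu-mir-34a, was at 92.8, 173 and 154 CPM in CD and at 85.1, 147 and 132 CPM in HFD. In TM4 it was at 10.8 and 11.5 CPM in Ctrl, 9.95 and 11.6 in CC, and 17.8 and 16.1 in Ang OE. The order of the groups was that of mmu-mir-34a, with CC at 10.8 ± 1.15 CPM (SD, n = 2), Ctrl at 11.1 ± 0.486 (n = 2), Ang OE at 17.0 ± 1.16 (n = 2), HFD at 121 ± 32.3 (n = 3) and CD at 140.1 ± 42.1 (n = 3). Again CC and Ctrl overlapped, HFD and CD overlapped, and Ang OE overlapped with neither pair.

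mmu-mir-449c, in the same intron as mmu-mir-449a, had the reverse pattern and was lower in every sperm library than in any TM4 library. It was at 4.79, 18.7 and 8.33 CPM in CD, on 67, 213 and 111 reads, and at 3.30, 3.96 and 2.97 CPM in HFD, on 46, 49 and 44 reads. The diets did not overlap, although CD library 1 lay closer to the HFD libraries than to CD library 2. TM4 held 39.4 and 29.1 CPM in Ctrl, 25.08 and 25.03 in CC, and 21.7 and 31.8 in Ang OE. Means ran from 3.41 ± 0.504 CPM in HFD (SD, n = 3) through 10.6 ± 7.21 in CD (n = 3), 25.1 ± 0.0412 in CC (n = 2) and 26.8 ± 7.09 in Ang OE (n = 2) to 34.3 ± 7.30 in Ctrl (n = 2), and only Ang OE overlapped with its neighbours CC and Ctrl.

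mmu-mir-449b, the third hairpin of that cluster, was close to absent, with 35 reads in all 12 libraries. Sperm libraries had 1 to 10 reads and TM4 libraries 0 to 4. Ctrl library 1 and CC library 2 had 0 reads, which allows a level of up to 0.107 and 0.109 CPM, covering counting error only. It did not pass the filter of at least 10 reads, and the other 5 hairpins passed in every comparison.

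**Figure D1:**
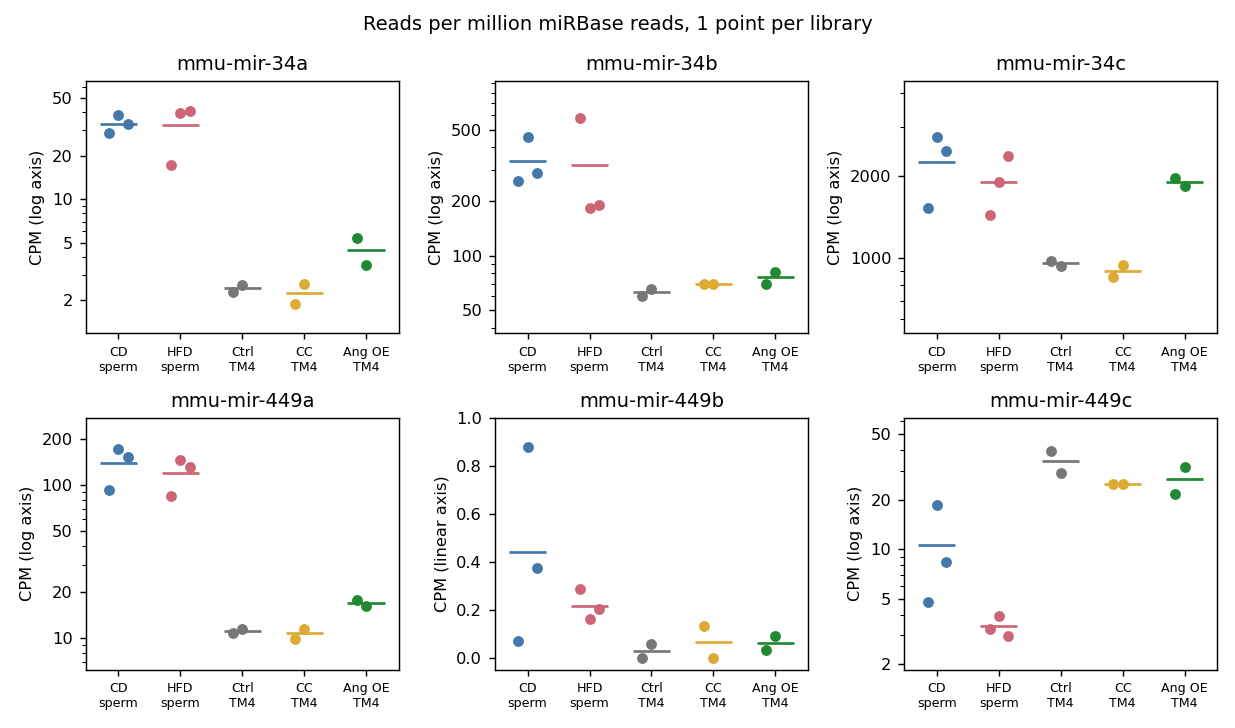
CPM of the 6 hairpins, with 1 panel per hairpin, 1 point per library and a line at the group mean (n = 3 for sperm groups, n = 2 for TM4 groups). The y axes are logarithmic except for mmu-mir-449b, which stays below 1 CPM. mmu-mir-34a, mmu-mir-34b and mmu-mir-449a are higher in all sperm libraries than in all TM4 libraries, mmu-mir-449c is lower, and the Ang OE libraries stand above Ctrl for mmu-mir-34a, mmu-mir-34b, mmu-mir-34c and mmu-mir-449a.

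The 6 hairpins together made up 0.190% to 0.345% of miRBase reads in CD, 0.213% to 0.273% in HFD, 0.105% to 0.109% in Ctrl, 0.0960% to 0.105% in CC and 0.197% to 0.207% in Ang OE. The sum was mostly mmu-mir-34c, which gave 67.7% to 86.5% of the family's reads in sperm and 88.8% to 94.4% in TM4. mmu-mir-34b gave 7.03% to 27.3% in sperm, with the highest share in HFD library 1, and 3.39% to 7.30% in TM4. The shares of mmu-mir-449a, mmu-mir-34a and mmu-mir-449c did not overlap between the sample types, while those of mmu-mir-449b did. mmu-mir-449a was at 4.00% to 6.48% in sperm and 0.820% to 1.1% in TM4, and mmu-mir-34a at 0.805% to 1.75% against 0.179% to 0.263%. mmu-mir-449c was at 0.109% to 0.541% in sperm against 1.05% to 3.61% in TM4. Reads of different hairpins are not molar amounts, because mature strands enter a library with different efficiency. The printed mature strands have nearly equal lengths, so no scaling by length was applied.

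**Figure D2:**
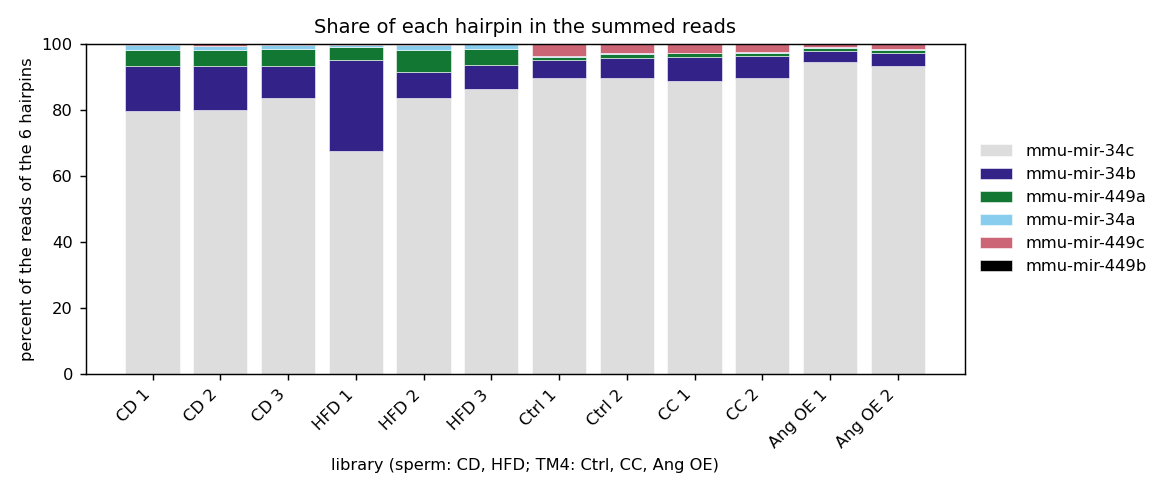
Stacked bars of the percentage of the family's reads taken by each hairpin (y axis) in each of the 12 libraries (x axis). mmu-mir-34c fills 67.7% to 94.4% of each bar, HFD library 1 has the largest share of mmu-mir-34b with 27.3%, and the TM4 bars hold more mmu-mir-449c and less mmu-mir-449a than the sperm bars.

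The comparison of HFD with CD sperm asks whether paternal diet changes these hairpins. None of the 5 tested hairpins passed the test, and neither did any of the 451 hairpins tested (0% of all hairpins, edgeR's quasi-likelihood test at an adjusted p of 0.05). At an unadjusted p under 0.05 there were 31 of 451 hairpins, among them mmu-mir-449c alone of the family. The log2 fold changes were -0.33 for mmu-mir-34c (SE 0.25, 95% interval -0.89 to 0.22), -0.17 for mmu-mir-34b (SE 0.41, -1.10 to 0.76), -0.12 for mmu-mir-34a (SE 0.33, -0.87 to 0.63) and -0.29 for mmu-mir-449a (SE 0.29, -0.93 to 0.36), each with an adjusted p of 0.989 in edgeR.

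The largest difference was that of mmu-mir-449c, with a log2 fold change of -1.68 (SE 0.42, 95% interval -2.62 to -0.73), a level 3.20-fold lower in HFD. Its unadjusted p was 0.00311 and its adjusted p 0.399 in edgeR, so it did not pass, whereas DESeq2 gave -1.66 with an adjusted p of 0.0320, as 1 of 8 hairpins that DESeq2 called. It was the only member whose diets did not overlap, against 6.21% of all hairpins. Without CD library 2 the log2 fold change was -1.13 (adjusted p = 0.999 in edgeR). That library also had the most germ cell list reads, with 8866 CPM against 2334 and 3648 in the other CD libraries and 4270, 1974 and 1686 in HFD libraries 1 to 3. mir-202 stood at 59.8 CPM in CD library 2, against 6.94 and 19.6 in the other CD libraries and 11.3, 7.75 and 4.86 in HFD. The median log2 fold change of the 17 germ cell hairpins was -0.60, with 0 of 17 called, and of the 5 members -0.29, beside -0.01 over all hairpins. White blood cell list reads were higher in every HFD library (787, 927 and 1435 CPM from lowest to highest) than in any CD library (592, 653.5 and 685). Of its 4 hairpins 0 were called, with a median log2 fold change of 0.29. In sperm most of these reads were mmu-mir-142a (mean of 707 CPM), which was at 0.63. mmu-mir-150 was at 0.49, mmu-mir-223 at 0.10 and mmu-mir-155 at -0.11. The part of these lists in the difference of mmu-mir-449c was not tested.

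Single libraries decided the direction of some differences that did not pass, among them HFD library 1, which stood apart. Without HFD library 1, the log2 fold change of mmu-mir-34a was 0.27 and that of mmu-mir-34b -0.82, with adjusted p-values of 0.407 and 0.193 in edgeR. mmu-mir-34c was then at -0.07, mmu-mir-449a at 0.011 and mmu-mir-449c at -1.55, with adjusted p-values of 0.908, 0.975 and 0.193. None of the 5 passed in edgeR with or without this library. The direction of mmu-mir-34b also turned without HFD library 2 (0.072), HFD library 3 (0.13) or CD library 2 (0.0087), with adjusted p-values of 0.999, 0.997 and 0.999 in edgeR.

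The comparison of CC with Ctrl asks whether inhibition of AMPK, the kinase that senses low cellular energy, changes the hairpins in TM4. None of the 5 passed the test, and 4.13% of 533 hairpins did (12 higher and 10 lower). DESeq2 also called 0 of the 5 at an adjusted p of 0.05. At an unadjusted p under 0.05 edgeR gave 94 of the 533 hairpins, 1 of them a member. mmu-mir-34c had a log2 fold change of -0.09 (SE 0.10, 95% interval -0.30 to 0.12, adjusted p = 0.713), the narrowest interval of the family. mmu-mir-34a was at -0.11 (SE 0.25, adjusted p = 0.876), mmu-mir-449a at -0.05 (SE 0.15, adjusted p = 0.913) and mmu-mir-34b at 0.16 (SE 0.13, adjusted p = 0.603), all from edgeR.

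mmu-mir-449c had the largest difference of the 5 here too, with a log2 fold change of -0.44 (SE 0.18, unadjusted p = 0.0273, adjusted p = 0.199 in edgeR). Without Ctrl library 2 it was -0.63 with an adjusted p of 0.0159, and without Ctrl library 1 it was -0.23 with an adjusted p of 0.767. The CC and Ctrl libraries did not overlap for 2 members, mmu-mir-34b (higher in CC) and mmu-mir-449c (lower in CC), against 47.1% of all hairpins. The members' median was -0.09, beside -0.03 over all hairpins.

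Overexpression of Ang in TM4 went with higher levels of 4 of the 5 tested hairpins. Effects of Ang, of the plasmid and of batch cannot be told apart in this comparison. mmu-mir-34c had the highest estimate, 1.26 on the log2 scale (SE 0.10, 95% interval 1.05 to 1.47, adjusted p = 7.8e-08 in edgeR), a 2.39-fold increase. mmu-mir-34a rose by 1.15 (SE 0.23, adjusted p = 0.000759), with an interval of 0.66 to 1.63 that overlaps that of mmu-mir-34c. mmu-mir-449a rose by 0.88 (SE 0.15, adjusted p = 0.000148) and mmu-mir-34b by 0.55 (SE 0.13, adjusted p = 0.00336), all in edgeR. mmu-mir-449c did not pass, with -0.07 (SE 0.18, 95% interval -0.45 to 0.31, adjusted p = 0.756). The increase thus covered hairpins of all 3 loci, but mmu-mir-449a and not its neighbour mmu-mir-449c passed.

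These counts stand beside many changes in the same libraries. Of 533 hairpins, 38.3% were called, 24.2% as higher and 14.1% as lower, and groups did not overlap for 4 members against 70.4% of all hairpins. The median log2 fold change was 0.88 over the 5 members and 0.06 over all hairpins. With all miRBase reads as library size, which moved the median of all hairpins by -0.27 and turned the split of 129 higher and 75 lower into 81 and 139, mmu-mir-34c stood at 0.98, mmu-mir-34a at 0.88 and mmu-mir-449a at 0.61, all still called, and mmu-mir-34b at 0.27 with an adjusted p of 0.0983. Leaving out Ang OE library 2 gave 0.38 for mmu-mir-34b (adjusted p = 0.0612), and leaving out Ang OE library 1 gave 0.76 for mmu-mir-34a (adjusted p = 0.0463). The muscle list, which includes mir-143, summed to 94560 and 129000 CPM in the Ang OE libraries at its lowest and highest and to 49710 and 55570 CPM in Ctrl. Its 4 tested hairpins did not move together, since mmu-mir-143 and mmu-mir-145a rose, mmu-mir-133a-1 and mmu-mir-133a-2 had log2 fold changes of -1.40 each without passing, and the list's median was -0.50. The mesenchymal list summed to 21700 and 22740 CPM in Ang OE against 27080 and 28000 CPM in Ctrl, with 1 of 6 hairpins called higher and 3 lower. The red blood cell list summed to 1762 and 1784 CPM against 2737 and 2857 CPM, with 2 of 3 tested hairpins called lower. These were mmu-mir-486a and mmu-mir-486b, at -0.38 each, which made up nearly all of the list in TM4 (means of 1085 and 1078 CPM). mmu-mir-451a had a mean of 0.419 CPM and a log2 fold change of -0.04. The part of these lists in the members' changes was not tested. The Ang mRNA was not analysed here.

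Other miRNAs linked to p53 were compared because mir-34 genes are p53 targets. In Ang OE, 6 of the 10 listed hairpins rose and 0 fell, with a median log2 fold change of 0.39, beside 24.2% higher and 14.1% lower of all hairpins, a split that depended on the scaling as given above. The list's count did too, in an alternative added after the data were seen, with 4 higher, 2 lower and a median of 0.12 when all miRBase reads were the library size. Without Ang OE library 1 it was 4 higher and 1 lower. Of the 6 that rose, mir-143 and mir-145a also belong to the muscle list. mmu-mir-143 rose by 1.38 (adjusted p = 4.08e-06), mmu-mir-215 by 1.30 (adjusted p = 1.75e-05), mmu-mir-192 by 0.96 (adjusted p = 1.75e-05) and mmu-mir-15a by 0.58 (adjusted p = 0.000943), while mmu-mir-16-2 was at -0.28 (adjusted p = 0.0702), all in edgeR. In CC and in HFD, 0 of the 10 passed in edgeR, with medians of -0.01 and 0.07, beside 4.13% and 0% of all hairpins called. DESeq2, and edgeR after ComBat-seq, each called 1 of the 10 higher in CC, in alternatives added after the data were seen. The CC and Ang OE comparisons share their Ctrl libraries. In CD sperm against Ctrl, 4 were higher and 3 lower, with a median of 0.29, beside 78.9% of all hairpins called. With all miRBase reads as library size 4 were higher and 5 lower, with a median of -0.65. With DESeq2 6 were higher and 2 lower.

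**Figure D3:**
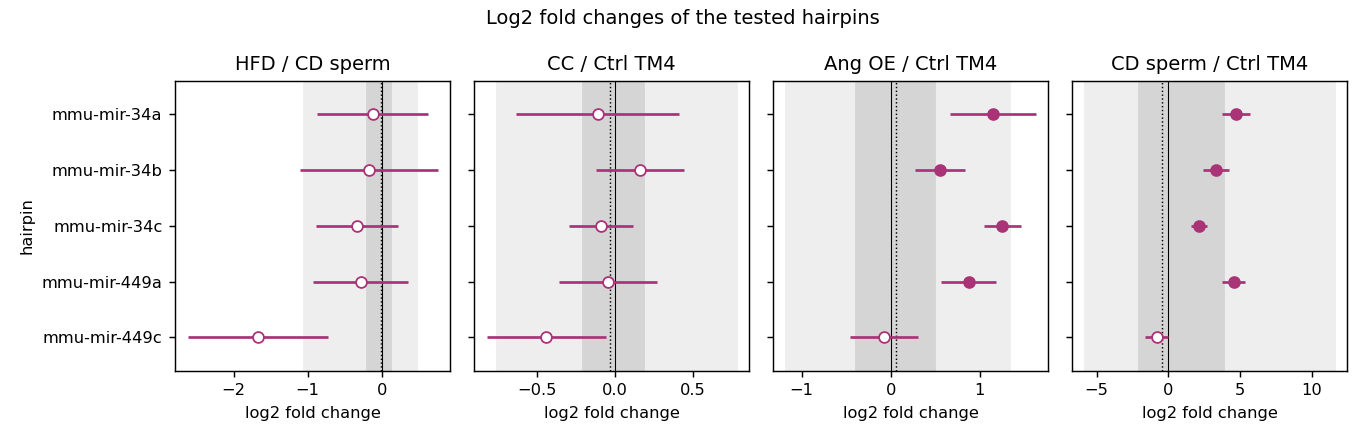
Log2 fold changes of the 5 tested hairpins (x axis) in the 4 comparisons, with 95% intervals from edgeR. Filled points passed an adjusted p of 0.05, the dark and light bands hold the middle 50% and 90% of all hairpins tested, and the dotted line is their median. All points are open for HFD / CD and CC / Ctrl, and mmu-mir-449c is the only open point for Ang OE / Ctrl and CD sperm / Ctrl.

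The last comparison set CD sperm against Ctrl TM4, the groups of each sample type without a treatment. Tissue, culture and preparation differ together here and cannot be told apart. mmu-mir-34a was 26.2-fold higher in sperm (log2 fold change 4.71, SE 0.45, adjusted p = 1.67e-07 in edgeR) and mmu-mir-449a 23.7-fold higher (4.57, SE 0.37, adjusted p = 2.36e-08). The more abundant mmu-mir-34b and mmu-mir-34c were 10.1-fold and 4.42-fold higher (3.33, SE 0.42, adjusted p = 3.77e-06, and 2.14, SE 0.27, adjusted p = 4.28e-06). mmu-mir-449c was at -0.82 (SE 0.38, adjusted p = 0.0634).

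In this comparison 78.9% of 648 hairpins were called and 37% were higher in sperm, and groups did not overlap for all 5 members tested against 90.9% of all hairpins. The median log2 fold change was 3.33 over the members and -0.44 over all hairpins. Scaling moved all values together. With all miRBase reads as library size the median of all hairpins shifted by -0.92, and mmu-mir-34c stood at 1.23, mmu-mir-34b at 2.41, mmu-mir-34a at 3.78 and mmu-mir-449a at 3.65, all called. Under that scaling mmu-mir-449c was at -1.70 with an adjusted p of 0.00121 and was called lower in sperm. With DESeq2's size factors the median shifted by 0.50 and mmu-mir-449c stood at -0.32. Its direction was the same under each scaling.

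Ratios within a library do not depend on the scaling. mmu-mir-449a and mmu-mir-449c, which lie in the same intron, gave the largest difference between sample types among the 4 ratios computed. There were 5.17, 10.8 and 5.41 reads of mmu-mir-449c per 100 of mmu-mir-449a in the CD libraries and 3.88, 2.69 and 2.25 in HFD. In TM4 the ratio was 365 and 253 in Ctrl, 252 and 216 in CC, and 122 and 197 in Ang OE. mmu-mir-449a thus outnumbered mmu-mir-449c in every sperm library and the reverse held in every TM4 library.

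For the other cluster, there were 17.1, 16.5 and 11.7 reads of mmu-mir-34b per 100 of mmu-mir-34c in CD and 40.3, 9.68 and 8.13 in HFD. HFD library 1 stood apart from all other libraries. In TM4 the ratio was 6.11 and 6.99 in Ctrl, 8.21 and 7.40 in CC, and 3.59 and 4.45 in Ang OE. The Ang OE libraries had the lowest ratios, and the 95% intervals of the log2 fold changes of mmu-mir-34b (0.27 to 0.83) and mmu-mir-34c (1.05 to 1.47) in Ang OE did not overlap. The difference between these hairpins was not itself tested. Between the clusters, there were 5.59 to 7.76 reads of mmu-mir-449a per 100 of mmu-mir-34c in sperm, 1.102 to 1.228 in Ctrl and CC, and 0.880 and 0.909 in Ang OE, so the Ang OE libraries lay below the other TM4 libraries here too.

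**Figure D4:**
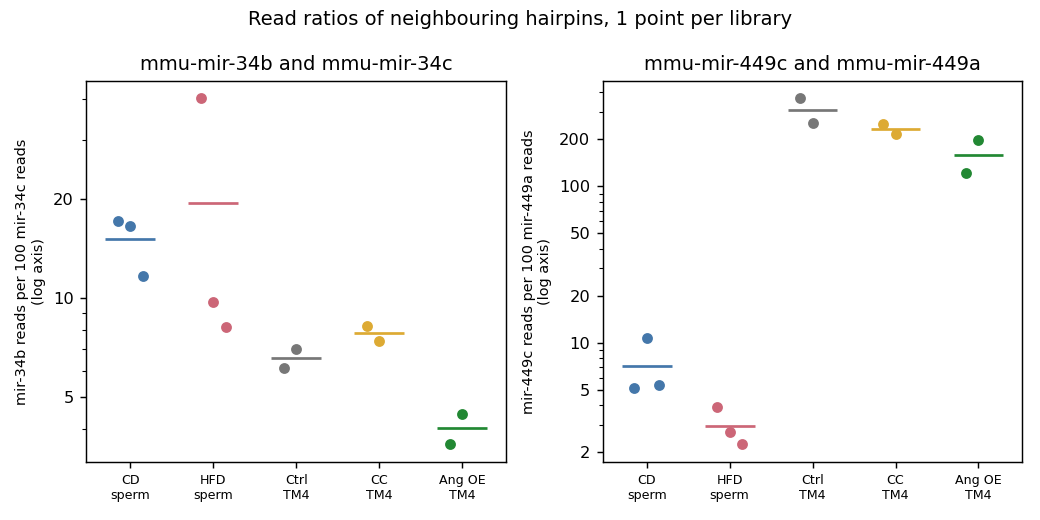
Reads of mmu-mir-34b per 100 reads of mmu-mir-34c (left) and of mmu-mir-449c per 100 reads of mmu-mir-449a (right), on logarithmic y axes, with 1 point per library and a line at the group mean. HFD library 1 is the highest point on the left with 40.3, and on the right sperm libraries lie between 2.25 and 10.8 and TM4 libraries between 122 and 365.

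The hairpins whose log2(CPM + 1) followed the sum of the 6 most closely over the 12 libraries were mmu-mir-148a (Pearson's r 0.917), mmu-let-7a-2 (0.892), mmu-mir-126a (0.884), mmu-mir-101a (0.879) and mmu-mir-708 (0.872), out of 327 compared. The 12 points fall into 2 sample types. The sum followed mmu-mir-34c, with r of 0.980, while mmu-mir-449a was at 0.875, mmu-mir-34a at 0.870, mmu-mir-34b at 0.763 and mmu-mir-449c at -0.583. Over the 6 sperm libraries alone the closest of 253 were mmu-mir-3473f (0.985), mmu-mir-3470b (0.928), mmu-mir-17 (0.894), mmu-mir-20a (0.823) and mmu-mir-103-2 (0.819), none of which was among the 5 named over all libraries. Within sperm, mmu-mir-34b had r of 0.135 with the sum and mmu-mir-34c 0.955, each hairpin being itself part of the sum. The sperm ranking takes the highest of 253 correlations over 6 libraries, where high values are easily reached, and was not tested.

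A further readout, the share of reads without a genome match, held nothing for this family. All reads of the 6 hairpins matched the genome, and their counts were whole numbers in 12 of 12 libraries. No hairpin among the 166 with at least 100 reads in every library had unmatched reads, so the planned test of this share between sperm and TM4 could not be run.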

How the data were processed

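Small RNA was sequenced from 6 sperm libraries (3 CD, 3 HFD) and 6 TM4 libraries (2 each of Ctrl, CC and Ang OE), grouped by the sample labels. According to the methods and the submitters' processing notes, the authors checked reads with FastQC 0.12.0, trimmed them with Trimmomatic 0.40, kept 15 to 45 nt and annotated them with SPORTS1.1, the build being mm10. The deposited files hold estimated counts per subclass for each library, not normalized, in which a read with several matches is divided among them. The labels and the paper differ in the fat content of the HFD and in the age at which diets began, and the labels' values were used. The paper's methods give a lower fat content, and a figure legend gives a later starting age.

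Reads with and without a genome match were added with pandas 2.3.3 in Python 3.11.15 and rounded. A minimum of 10 reads was required in 3 libraries for the sperm fit and in 2 libraries for fits with TM4. Tests used R 4.3.3 and edgeR 4.0.16 (quasi-likelihood test, TMM, Benjamini-Hochberg adjustment over all hairpins tested). HFD and CD were fitted on the 6 sperm libraries, CC and Ang OE on the 6 TM4 libraries, and CD against Ctrl on all 12. Tests were tested on simulated data. Replicate numbers were shared between groups, but same-numbered libraries of the groups compared did not deviate together (correlations of -0.345 to 0.070 for the diets, -0.011 for CC and -0.110 for Ang OE with Ctrl). Those of CC and Ang OE did weakly (0.167), and no block was used. With 2 libraries per TM4 group the deviations within a group mirror each other, so these correlations cannot show that batches are absent. The members and the lists of germ cell, epithelial, muscle, red blood, white blood, mesenchymal, gonadal somatic and p53-linked miRNAs were chosen with earlier results of these data known. The text gives each of the 6 hairpins, and the 5 others most like their sum among hairpins with a mean of at least 100 reads. White blood cell miRNAs summed to 1210 to 1489 CPM in TM4, where nearly all of it was mmu-mir-155 (mean of 1339 CPM) and mmu-mir-142a had a mean of 1.30 CPM.

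Alternatives were DESeq2 1.42.0, other library sizes and size factors, no filter or at least 100 reads, genome-matched reads alone, other groups in the fit, the replicate number as a block, ComBat-seq from sva 3.50.0, and each library left out in turn. ComBat-seq took the replicate number as batch, since the paper names no batches. Figures were drawn with matplotlib 3.10.9.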

Additional observations from a re-analysis of the deposited data

How the results depend on the processing

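The number of the 5 tested hairpins called was 0 for HFD against CD except with DESeq2, which called 1, and 0 for CC against Ctrl except without Ctrl library 2, where it was 1 (0 to 1 over the libraries left out). It was 3 to 4 for Ang OE and 4 to 5 for CD sperm against Ctrl, or 6 without a filter, which admits mmu-mir-449b. Samples share only a replicate number, and with the replicate block the counts were 0, 0 and 4. With clean reads as library size, which moved the median of all hairpins by 0.19, mmu-mir-34a in HFD was at 0.071. Over the libraries left out in turn, log2 fold changes in HFD ranged from -0.36 to 0.27 for mmu-mir-34a, -0.82 to 0.13 for mmu-mir-34b, -0.52 to 0.011 for mmu-mir-449a and -1.92 to -1.13 for mmu-mir-449c. In CC they ranged from -0.34 to 0.068 for mmu-mir-34a and -0.15 to 0.026 for mmu-mir-449a, and in Ang OE from -0.43 to 0.14 for mmu-mir-449c. mmu-mir-449c was called lower in CD sperm than in Ctrl without a filter (-0.96, adjusted p = 0.0140), without CD library 2 (-0.91, adjusted p = 0.0247), and with clean reads as library size (-1.95, adjusted p = 0.000265), under which mmu-mir-34c was at 0.98 and mmu-mir-34b at 2.17. Over all hairpins, calls numbered 8 in HFD with DESeq2 and 0 in the edgeR fits. In CC they numbered 35 with the block, 39 after ComBat-seq and 0 without either CC library, against 22, and in CD against Ctrl 340 with at least 100 reads, where fewer hairpins were tested, against 511. With 2 libraries per TM4 group, a lone library was assumed to vary like the other groups. The causes were not tested. Depth limits mmu-mir-449b, which was never tested at the main filter. In sperm, mmu-mir-449c rested on 44 to 213 reads, and its CD libraries ran from 4.79 to 18.7 CPM.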
